A study of Mus musculus with 91 samples.

Results

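The genes described here are 37 molecular chaperones and their partners in regulatory T cells (Tregs), a class of CD4 lymphocytes defined by Foxp3 that keeps immune responses in check. They were chosen by symbol, out of 20378 genes measured in any of 8 count tables, and were grouped by where their products work. The groups were 8 subunits of the CCT ring of the cytosol, 4 mitochondrial chaperones, 11 cytosolic heat-shock proteins and co-chaperones, and 14 genes of the endoplasmic reticulum (ER), Xbp1 among them.

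Chaperones bind proteins that are not yet folded or have lost their fold and, by cycles of ATP use, help them reach a working shape. The CCT ring encloses cytosolic clients such as actin and tubulin, Hspd1 with its lid Hspe1 does so in the mitochondrial matrix, and HSP70 and HSP90 proteins work in every one of these compartments. When unfolded protein gathers in the ER, sensors in its membrane raise ER chaperone genes through factors that include Xbp1, whereas heat and other stress raise the inducible cytosolic genes, such as Hspa1a and Hspa1b, through heat shock factor. Activated lymphocytes grow and make more protein, and these genes are known to rise with it.

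Tregs came from the spleens of C57/BL6 mice that carry a red fluorescent protein under Foxp3 as a reporter, which all groups share, and total RNA depleted of ribosomal RNA was sequenced. The animals received FP, a fusion protein that joins IL-2 to its receptor chain CD25, mouse IL-2, or PBS, and the age of the animals is not given in the sources used here. There were 4 libraries each of FP, IL-2 and PBS at 1.5 h and at 16 h. There were 3 of FP, 4 of IL-2 and 3 of PBS at 4 h, then 4 of FP, 3 of IL-2 and 3 of PBS at 72 h, and 4 of FP and 3 of PBS at 168 h. For restimulation (1.5 h), 4 libraries came from animals given FP and later FP again (repeated FP), 3 from animals given PBS and later FP (single FP), and 3 from animals given PBS both times. An in vitro table (1.5 h) and a high-dose table, whose dose and time the labels do not give, each held 3 libraries of IL-2 and 3 of PBS. The labels name 20 ug as the FP dose with the same text for every sample. They do not say that the libraries of a group came from separate animals or cultures, so the p-values given here speak to the variation among the libraries sequenced, some of which may be technical.

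Library totals ran from 12212262 to 46108114 counted reads. Il2ra, which encodes the CD25 chain and is raised by IL-2 signals, had 1837 to 2147 CPM, counts scaled to a common library size, with FP, 2077 to 2334 CPM with IL-2 and 542 to 629 CPM with PBS at 1.5 h. The summed level of 9 Treg markers, Il2ra itself among them, was 6209 to 6783 CPM with FP, 6729 to 7201 CPM with IL-2 and 3735 to 4049 CPM with PBS. The library labelled single FP 1 in the restimulation table had 566 CPM of Il2ra, against 1785 and 1708 CPM in the other single FP libraries and 569 to 639 CPM in PBS libraries, so the tests of single FP are given with and without it. Repeated FP against PBS is given only from the fit that includes it. A further pair of 4 h libraries that each have labels in contradiction entered no comparison. The labels of FP 2 in the 1.5 h table carry a later date than those of all its other libraries. What the date marks is not stated. The tables for 1.5 h, in vitro IL-2 and restimulation held all 37 genes. Hspa1a and Hspa1b did not enter the tests at 4 h, 16 h and 168 h (35 genes tested), and Hspa1a did not at 72 h and at high dose (36 tested). In bulk RNA such as this, fewer cells of a type and less RNA per cell cannot be told apart.

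The chaperones differed widely in level. Per kilobase of exon, the median level over the 1.5 h PBS libraries was 393 CPM for Hsp90ab1, the constitutive cytosolic HSP90, followed by Hspa8, the constitutive cytosolic HSP70, at 114 CPM, and Calr, which encodes the lectin calreticulin, at 109 CPM. The lowest were Creld2 at 8.57 CPM, Sdf2l1 at 7.98 CPM, Hspa1b at 0.703 CPM and Hspa1a at 0.195 CPM per kilobase. The last pair are the stress-inducible HSP70 genes. They share 58.8% (Hspa1a) and 62.3% (Hspa1b) of their 50-base stretches, so reads can fall to either.

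Many chaperone transcripts rose soon after IL-2 and fewer were called after FP, most rose with FP at 16 h and 72 h, and none was called 16 h or 72 h after IL-2 or 168 h after FP. A gene was called when its adjusted p, from edgeR's quasi-likelihood test with Benjamini-Hochberg adjustment over all genes of the table, was below 0.01. After IL-2 at 1.5 h, 16 of 37 members rose and none fell, where 8.39% of all genes tested rose and 14.2% changed in either direction. After FP at 1.5 h, 7 of 37 rose and none fell, where 4.39% of all genes rose and 6.67% changed in either direction. The median log2 change of the members was 0.49 with IL-2 and 0.46 with FP, against -0.01 over all genes in both comparisons. At 16 h, 32 of 35 members rose with FP (14.4% of all genes rose and 28.8% changed in either direction), with a median of 0.94 against -0.05 for all genes. IL-2 at 16 h gave no call among 35 members (0.35% of all genes were called, 6 members had an unadjusted p below 0.05, and DESeq2 called 0), and their median was -0.14. At 72 h, 27 of 36 members rose with FP (17.3% of all genes rose and 30.4% changed in either direction), with a median of 0.85. IL-2 at 72 h gave no call in 36 members (0% of all genes, 0 members at an unadjusted p below 0.05, and 0 by DESeq2). FP at 168 h gave none in 35 (1.21% of all genes, 1 member at an unadjusted p below 0.05, and 0 by DESeq2). FP and IL-2 of the same time were set against the same PBS libraries, so those comparisons are not independent. The FP count at 1.5 h was 4 without FP 3, 4 without PBS 1 and 11 without FP 4, and that at 72 h was 16 without PBS 3.

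**Figure D1:**
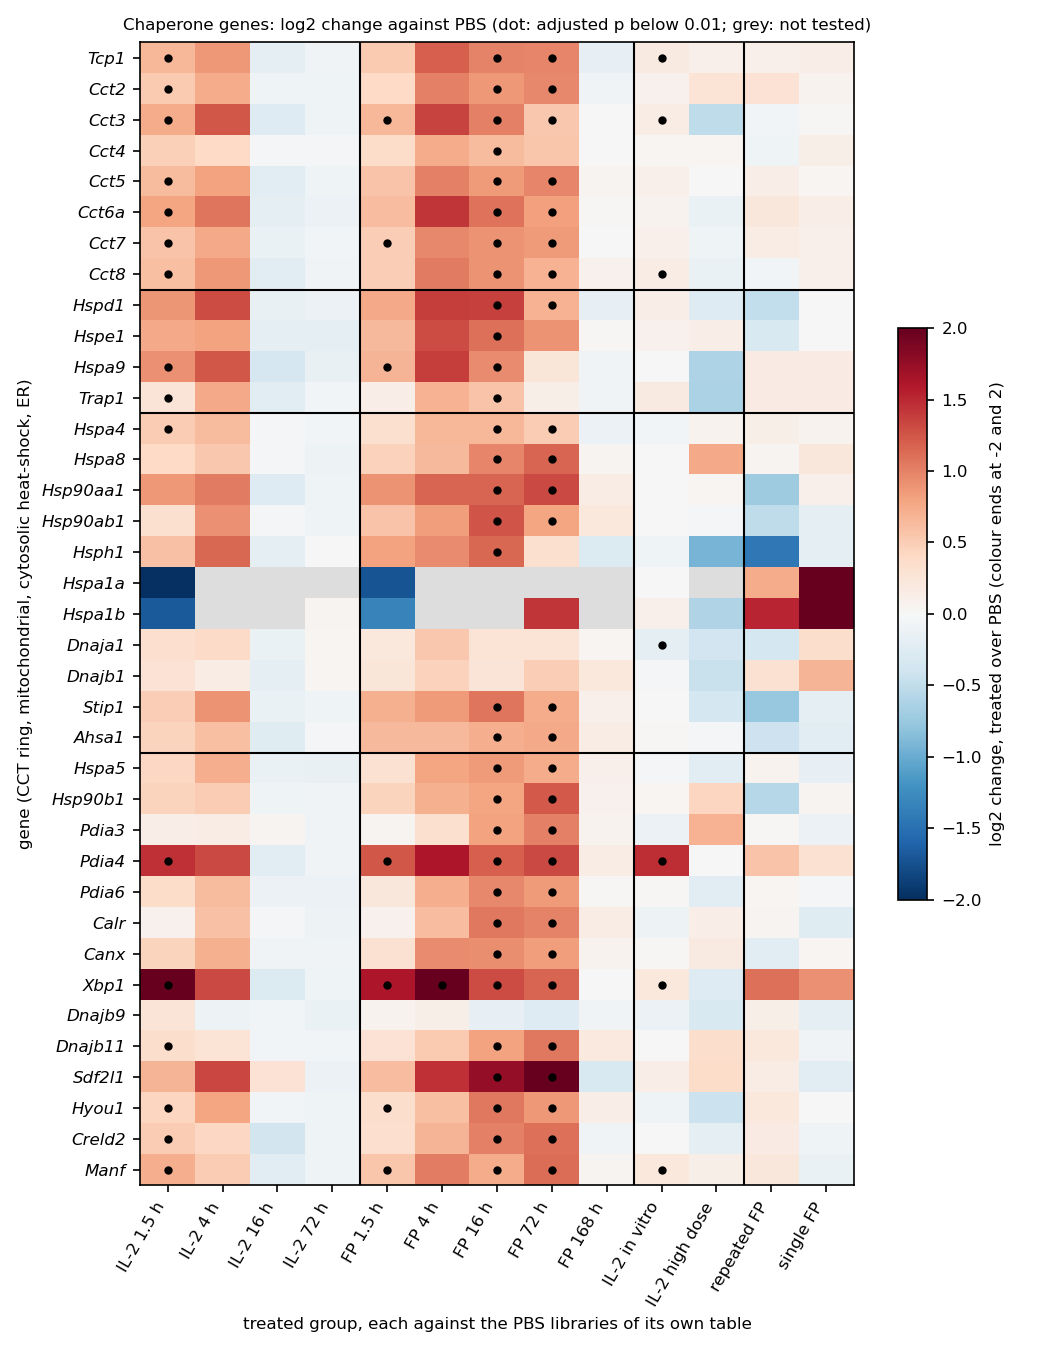
Log2 change against PBS of the 37 genes (rows, in the order CCT ring, mitochondrial, cytosolic heat-shock, ER) in 13 treated groups (columns). Red is higher and blue lower than PBS, the colour scale ends at -2 and 2, dots mark an adjusted p below 0.01, and grey cells were not tested. Dots fill most of the FP columns at 16 h (32 of 35) and 72 h (27 of 36), and no dot stands in the columns for IL-2 at 16 h and 72 h.

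Table by table, the level of a compartment was summarised in each library as the mean log2 CPM of its measured members minus the mean of the PBS libraries. At 16 h this was 0.918 ± 0.138 for the CCT ring, 1.02 ± 0.142 for the mitochondrial, 0.855 ± 0.199 for the cytosolic and 0.954 ± 0.130 for the ER members with FP (SD, n = 4), and no FP library overlapped a PBS library. At 72 h it was 0.986 ± 0.282 for ER, 0.779 ± 0.309 for CCT, 0.727 ± 0.393 for cytosolic and 0.463 ± 0.279 for mitochondrial members (SD, n = 4). Differences between compartments within a time were not tested.

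**Figure D2:**
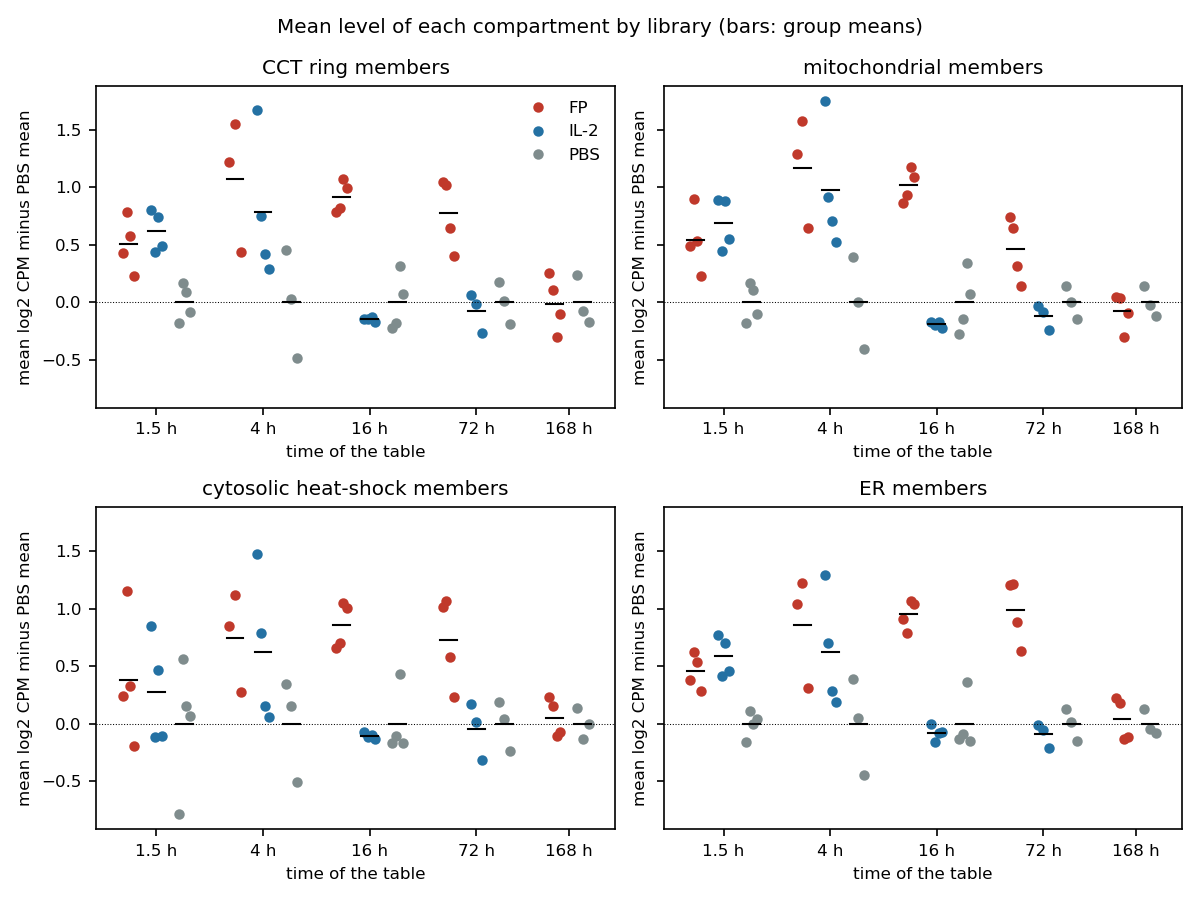
Mean level of the measured members of each compartment by library (vertical axis, mean log2 CPM minus the mean of the PBS libraries of the table) at 5 times after injection (horizontal axis), with FP in red, IL-2 in blue and PBS in grey and bars at group means. The IL-2 points lie with the PBS points at 16 h and 72 h, and the cytosolic panel has the widest spread at 1.5 h, from -0.787 to 0.567 among PBS libraries. That panel averages 11 members at 1.5 h, the low-count Hspa1a and Hspa1b among them. It averages 9 at 4 h, 16 h and 168 h and 10 at 72 h.

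Most of the CCT ring rose early with IL-2. Its 8 subunits, Tcp1 (the first) and Cct2 to Cct8, build 1 double ring. After IL-2 at 1.5 h 7 of 8 rose, with a median log2 change of 0.61, the exception being Cct4 at 0.47 (SE 0.15, edgeR adjusted p = 0.03121). FP at the same time gave calls for Cct3 and Cct7, and a median of 0.50. These FP calls were kept in 11 of 13 alternative fits for Cct3 and in 7 of 13 for Cct7. Cct3 had 196, 272, 217 and 186 CPM in the 4 FP libraries, 248, 199.6, 241 and 229 CPM in the 4 IL-2 libraries and 118, 162, 147 and 123 CPM in the 4 PBS libraries at 1.5 h. Every FP and IL-2 library lay above every PBS library. The log2 change was 0.67 (SE 0.13, edgeR adjusted p = 0.003241) with FP and 0.74 (SE 0.13, edgeR adjusted p = 0.0007451) with IL-2. Tcp1 had 168, 198, 161 and 129 CPM with FP, 202, 155, 203 and 162 CPM with IL-2 and 101, 127, 123 and 107 CPM with PBS at 1.5 h. Its log2 change was 0.52 (SE 0.13, edgeR adjusted p = 0.01678) with FP, which was not called, and 0.66 (SE 0.13, edgeR adjusted p = 0.002119) with IL-2.

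At 16 h all 8 CCT subunits rose with FP, by 0.64 to 1.09 on the log2 scale. Cct3 then had 247, 241, 290.1 and 281 CPM with FP, 112, 106, 111 and 113 CPM with IL-2 and 109, 119, 169.6 and 131 CPM with PBS, so the FP libraries stood clear of both other groups while IL-2 lay at the low end of PBS. Its log2 change with FP was 1.00 (SE 0.11, edgeR adjusted p = 1.687e-06). At 72 h 7 of 8 rose with FP. Tcp1 had 257, 236, 184 and 153 CPM with FP, 104, 106 and 92.2 CPM with IL-2 and 118, 107 and 92.3 CPM with PBS, a log2 change with FP of 0.97 (SE 0.16, edgeR adjusted p = 0.0004519). The 4 FP libraries were spread more widely than at 16 h but did not reach the PBS range. Cct4 at 0.55 (SE 0.15) missed the threshold with an edgeR adjusted p of 0.01177. Cct5 had 250.1, 210.4, 142 and 172 CPM with FP and 228, 186 and 148 CPM with PBS at 168 h, where the groups overlapped throughout and the median change of the 8 subunits was 0.01. Exons of Tcp1 and Cct6a overlap a gene on the opposite strand over 14.2% and 12.5% of their length, and whether counting used the strand is not stated.

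Of the 4 mitochondrial members, 2 rose with IL-2 and 1 with FP at 1.5 h, all 4 with FP at 16 h and 1 with FP at 72 h. Hspa9, the mitochondrial HSP70 that draws proteins through the inner membrane, had 223, 246, 219 and 175 CPM with FP, 284, 217, 255 and 249.8 CPM with IL-2 and 122, 134, 133 and 146 CPM with PBS at 1.5 h. No treated library reached down to the PBS range. The log2 change was 0.69 (SE 0.11, edgeR adjusted p = 0.0006277) with FP and 0.91 (SE 0.11, edgeR adjusted p = 2.981e-05) with IL-2. Trap1, the mitochondrial HSP90, rose by less, with 78.0, 82.2, 81.3 and 85.4 CPM after IL-2 and 67.7, 67.2, 67.8 and 69.5 CPM after PBS (log2 change 0.26, SE 0.06, edgeR adjusted p = 0.004423). The 4 PBS values lay within 3 CPM of each other, and all IL-2 values were above them. The call of Trap1 with IL-2 was kept in 6 of 13 alternative fits. The folding chamber Hspd1 and its lid Hspe1 were not called at 1.5 h. Hspd1 had 152, 223, 148 and 109 CPM with FP, 220.2, 131, 188 and 149 CPM with IL-2 and 71.9, 120.1, 113 and 70.4 CPM with PBS, and the PBS libraries split into a low and a high pair, the high pair (2 and 3) overlapping FP 4. The edgeR adjusted p was 0.0441 for FP and 0.0125 for IL-2.

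At 16 h all 4 mitochondrial members rose with FP. Hspd1 had 173, 192, 245 and 225 CPM with FP, 72.9, 71.5, 77.0 and 71.6 CPM with IL-2 and 68.4, 69.3, 108 and 77.8 CPM with PBS, a log2 change with FP of 1.36 (SE 0.13, edgeR adjusted p = 4.246e-07). Hspa9 had 248, 249, 290.0 and 302 CPM with FP, 119, 115, 107 and 109 CPM with IL-2 and 126, 133, 176 and 133 CPM with PBS. All FP libraries were above all others for both genes, and for Hspa9 all IL-2 libraries were below all PBS libraries, though that difference of -0.33 (SE 0.10) was not called (edgeR adjusted p = 0.1766). At 72 h only Hspd1 of the 4 passed the test with FP, at 0.70 (SE 0.15, edgeR adjusted p = 0.002194), and Hspe1 lay at 0.89 (SE 0.25, edgeR adjusted p = 0.01072). Hspa9 then had 171, 168, 147 and 122 CPM with FP, 123, 118 and 109 CPM with IL-2 and 138, 131 and 118 CPM with PBS. FP 4 fell inside the PBS range, and the log2 change was 0.24 (SE 0.12, edgeR adjusted p = 0.1168). The change of Hspa9 with FP was smaller at 72 h than at 16 h in a test of the difference itself (-0.73 on the log2 scale, SE 0.18, edgeR adjusted p = 0.008036). It was the only member of 35 that differed in this test, in which 5.49% of all genes were lower and 10.9% differed in either direction. That call was lost with another scaling (RLE) and without any 1 of 10 of the 15 libraries, the difference then lying between -0.78 and -0.67.

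Hspd1 and Hspe1 lie head to head on opposite strands. Their annotated exons overlap, over 4.24% of the exon length of Hspd1 and 7.60% of that of Hspe1. Only from the listed start of Hspd1 used below do they share sequence between their starts. The heat shock element is shown because it is the one stretch of that kind found among the members, in 2 of their 37 promoter windows. The window was the 250 bases before each start in RefSeq for GRCm38.p6, read for 30 of 37 members, and GAANNTTCNNGAA or TTCNNGAANNTTC, on both strands and overlapping each other, stood in 0.466% of 32851 windows of all genes. No window was listed for Cct4, Hspa9, Hspa8, Hsp90aa1, Hsp90ab1, Hyou1 and Manf, so these members were not searched. Capitals mark the fixed letters. The stretch lies 89 to 72 bases before the start of Hspe1, and, on the other strand, 144 to 127 bases before a listed start of Hspd1. Another listed start of Hspd1 lies further upstream, and from that start the stretch is inside the gene.
Hspe1 (chr1:55088059-55088076, + strand): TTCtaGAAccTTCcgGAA

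The cytosolic heat-shock members were the least regular at 1.5 h. After IL-2 only 1 of 11 rose, Hspa4, a partner that recharges HSP70, by 0.51 (SE 0.10, edgeR adjusted p = 0.002123), and after FP none did. Hsph1, the HSP105 partner of HSP70, had 229.7, 454, 198 and 153 CPM with FP, 294, 163, 256 and 175 CPM with IL-2 and 67.2, 258, 218 and 48.0 CPM with PBS. PBS 2 and 3 were high and PBS 1 and 4 low, with the treated libraries in between and above, so the groups overlapped. Its log2 change with FP of 0.81 had an SE of 0.47, and that with IL-2 of 0.59 an SE of 0.46, and neither was called. Dnajb1, a J-domain protein that hands clients to HSP70, had 81.3, 156, 92.9 and 64.7 CPM with FP, 136, 84.9, 108 and 79.1 CPM with IL-2 and 56.4, 140.4, 90.2 and 46.8 CPM with PBS, again with overlap. The summed level of 15 immediate early genes, which rise with handling, was 2244, 4149, 2988 and 1824 CPM in the FP, 2626, 3348, 2344 and 1569 CPM in the IL-2 and 2416, 4072, 2882 and 1709 CPM in the PBS libraries. It was highest in library 2 of each group. Its part in the spread of the heat-shock genes was not tested. Hspa1b was near the detection limit, with 1.49, 3.70, 0.764 and 0.360 CPM in FP, 3.09, 0.524, 0.903 and 0.586 CPM in IL-2 and 0.346, 3.25, 0.694 and 11.8 CPM in PBS libraries. PBS 4 alone lay far above, as it did for Hspa1a with 0, 0.773, 0.385 and 7.66 CPM in the PBS libraries. Their log2 changes, -1.72 and -1.33 with FP and -2.49 and -1.68 with IL-2, were among the largest in size at 1.5 h and were not called, with SEs of 0.89 to 1.18. Most Hspa1a and Hspa1b values came from few reads, and neither gene was called in any comparison.

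**Figure D3:**
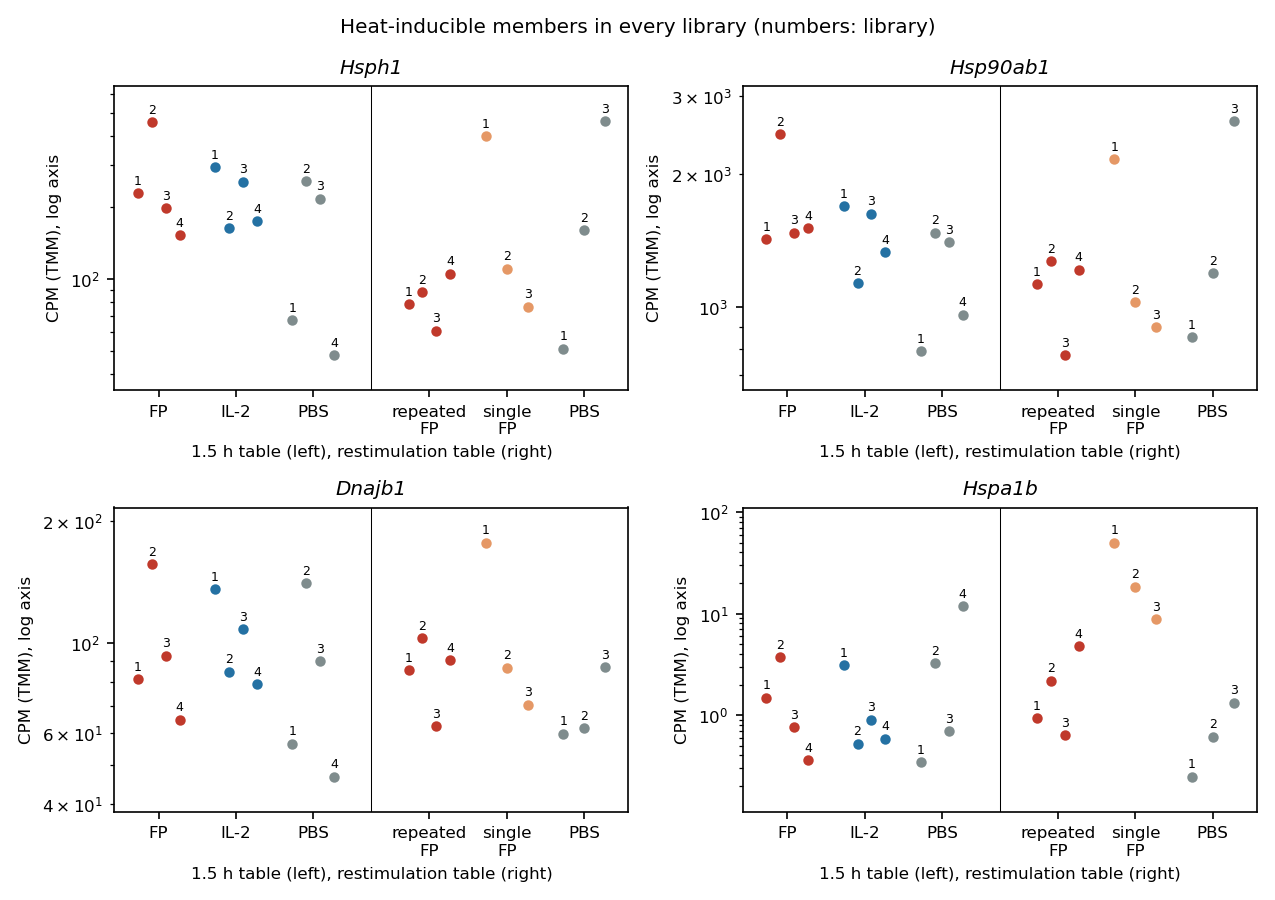
CPM (log axis) of 4 genes that heat shock factor is known to drive, by library, in the 1.5 h table (left of each line: FP, IL-2, PBS) and the restimulation table (right: repeated FP, single FP, PBS), with library numbers. Single FP 1 and PBS 3 of the restimulation table stand above their groups for Hsph1 (399 and 460 CPM), and PBS 4 of the 1.5 h table is the highest of that table for Hspa1b (11.8 CPM).

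By 16 h 7 of 9 tested cytosolic members rose with FP. The SD of the cytosolic level among PBS libraries was then 0.292, against 0.568 at 1.5 h, where Hspa1a and Hspa1b were also averaged. Hsp90ab1 had 1920.3, 1747, 2181 and 2195 CPM with FP, 859, 853, 813 and 789.7 CPM with IL-2 and 741, 845, 1203 and 573 CPM with PBS. FP libraries were all above the highest PBS library, PBS 3. The log2 change with FP was 1.26 (SE 0.16, edgeR adjusted p = 8.96e-06). Hspa8 had 684, 689, 854 and 888 CPM with FP, 392.2, 392.1, 379.8 and 383 CPM with IL-2 and 339.8, 345, 565 and 328 CPM with PBS, and PBS 3 again stood apart from the other PBS libraries, still below every FP library. The co-chaperones Stip1, which links HSP70 to HSP90, and Ahsa1, which speeds the ATP use of HSP90, rose by 1.07 and 0.72 on the log2 scale. Dnaja1, another J-domain partner of HSP70, at 0.27 (SE 0.12) and Dnajb1 at 0.26 (SE 0.14) were not called.

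At 72 h 6 of 10 tested cytosolic members rose with FP. Hsp90aa1, the inducible cytosolic HSP90, had 668, 567, 354 and 267 CPM with FP, 194, 183 and 145 CPM with IL-2 and 222, 177 and 157 CPM with PBS. The 4 FP libraries spanned a factor of more than 2 and all stood above PBS (log2 change 1.33, SE 0.27, edgeR adjusted p = 0.001765). Hspa8 had 988, 983, 803 and 539 CPM with FP, 388, 378 and 265 CPM with IL-2 and 421, 384 and 301 CPM with PBS. Hsph1, called at 16 h (1.15, SE 0.18), had 88.7, 95.6, 69.5 and 57.4 CPM with FP and 65.03, 75.7 and 46.1 CPM with PBS at 72 h, where the groups overlapped. Its log2 change then was 0.32 (SE 0.20, edgeR adjusted p = 0.2219), and the difference between the times did not pass the test (-0.85, SE 0.33, edgeR adjusted p = 0.07438).

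The largest early rises among the called members were in the ER group, in Xbp1 and Pdia4. Xbp1 encodes a transcription factor of the unfolded protein response that drives ER chaperone and secretory genes. It had 197, 238, 233 and 162 CPM with FP, 339, 259.9, 278 and 229 CPM with IL-2 and 66.0, 66.5, 63.7 and 74.9 CPM with PBS at 1.5 h. Every treated library had more than 2 times the highest PBS value, and the log2 change was 1.61 (SE 0.13, edgeR adjusted p = 3.605e-06) with FP and 2.03 (SE 0.14, edgeR adjusted p = 2.503e-07) with IL-2. These are gene totals, in which the spliced form that makes the active factor is not told apart. Pdia4, a protein disulfide isomerase that forms and rearranges disulfide bonds, had 227, 253, 250.3 and 196 CPM with FP, 302, 237, 279 and 264 CPM with IL-2 and 86.4, 101, 98.8 and 107 CPM with PBS. The groups with FP and IL-2 lay wholly above PBS, with log2 changes of 1.24 (SE 0.10, edgeR adjusted p = 3.531e-06) and 1.46 (SE 0.10, edgeR adjusted p = 3.53e-07). Manf, a secreted ER protein that supports folding, had 53.1, 55.7, 57.6 and 51.8 CPM with FP, 68.9, 50.6, 65.4 and 62.3 CPM with IL-2 and 34.3, 41.1, 37.9 and 36.0 CPM with PBS. The treated groups did not overlap PBS, and Manf rose in both. Hyou1, the large ER HSP70 that recharges Hspa5, rose with both as well (0.36 with FP and 0.43 with IL-2). Its call was kept in 5 of 13 alternative fits with FP and in 13 of 13 with IL-2. Dnajb11, the J-domain partner of Hspa5, and Creld2, an ER stress-induced protein with disulfide isomerase activity, passed the test with IL-2 (0.36 and 0.51) but not with FP (0.29 and 0.34), and FP and IL-2 themselves were not called different for either. The IL-2 calls were kept in 7 of 13 alternative fits for Dnajb11 and in 4 of 13 for Creld2.

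The lectin chaperones and Hspa5 were not called at 1.5 h. Calr averaged 343 ± 21.7 CPM with FP, 341 ± 40.7 CPM with IL-2 and 323 ± 59.7 CPM with PBS (SD, n = 4 each). Its log2 change was 0.09 (95% interval -0.17 to 0.34) with FP and 0.08 (-0.18 to 0.34) with IL-2. Pdia3, the disulfide isomerase that works with Calr and the membrane lectin Canx, changed by 0.06 (-0.18 to 0.30) with FP and 0.13 (-0.10 to 0.37) with IL-2. Hspa5, the ER HSP70 also called BiP, had 389.9, 515, 479 and 369 CPM with FP, 526.3, 438, 523 and 389 CPM with IL-2 and 285, 439.9, 351 and 339 CPM with PBS. PBS 2 lay within the treated range, and neither comparison was called (edgeR adjusted p = 0.1865 with FP and 0.05334 with IL-2).

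By 16 h 13 of 14 ER members rose with FP, and by 72 h again 13 of 14, Dnajb9 being the exception both times. Calr averaged 714 ± 68.3 CPM with FP, 336 ± 10.2 CPM with IL-2 and 343 ± 89.5 CPM with PBS at 16 h (SD, n = 4 each), a rise with FP that passed the test (log2 change 1.06, SE 0.13, edgeR adjusted p = 7.881e-06). Hspa5 had 612, 548, 657 and 679 CPM with FP, 332, 307, 313 and 304 CPM with IL-2 and 315, 309, 425 and 333 CPM with PBS. The FP libraries were again clear of the rest, at a log2 change of 0.85 (SE 0.10, edgeR adjusted p = 2.741e-06). Sdf2l1, a partner of the Hspa5 cycle in the ER lumen, changed most of all members with FP at 16 h and 72 h. It had 38.2, 33.0, 41.4 and 40.2 CPM with FP, 15.4, 11.5, 13.99 and 14.3 CPM with IL-2 and 9.04, 11.1, 17.5 and 7.18 CPM with PBS at 16 h, a log2 change with FP of 1.76 (SE 0.19, edgeR adjusted p = 1.51e-06). At 72 h it had 36.6, 40.2, 34.1 and 23.4 CPM with FP, 6.67, 8.89 and 7.03 CPM with IL-2 and 7.69, 9.00 and 7.66 CPM with PBS. The lowest FP library at either time was above the highest library of the other groups, and the log2 change at 72 h was 2.05 (SE 0.18, edgeR adjusted p = 5.169e-06). Hsp90b1, the ER HSP90 also called GRP94, had 609.9, 612, 451 and 404 CPM with FP, 216, 222 and 191 CPM with IL-2 and 233, 230.0 and 200.2 CPM with PBS at 72 h, with no overlap (log2 change 1.23, SE 0.15, edgeR adjusted p = 4.546e-05). Dnajb9, a J-domain partner of Hspa5 that holds back the sensor Ire1, had 21.9, 18.4, 20.3 and 16.3 CPM with FP, 23.8, 18.9, 21.8 and 18.2 CPM with IL-2 and 25.9, 15.7, 24.7 and 20.0 CPM with PBS at 16 h. All groups overlapped, at a log2 change with FP of -0.17 (95% interval -0.47 to 0.13).

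Xbp1 and Pdia4 stayed raised with FP. Xbp1 had 151, 150.3, 194 and 195 CPM with FP, 63.8, 54.1, 53.3 and 59.1 CPM with IL-2 and 66.0, 61.1, 89.0 and 62.1 CPM with PBS at 16 h, and 161, 155, 127 and 101 CPM with FP, 60.5, 58.3 and 52.5 CPM with IL-2 and 63.0, 64.1 and 55.6 CPM with PBS at 72 h. The FP libraries lay above both other groups each time, with log2 changes of 1.31 (SE 0.12, edgeR adjusted p = 2.803e-07) at 16 h and 1.16 (SE 0.15, edgeR adjusted p = 5.915e-05) at 72 h. Pdia4 had 285, 273, 217 and 158 CPM with FP, 95.9, 90.99 and 78.8 CPM with IL-2 and 105, 94.9 and 78.6 CPM with PBS at 72 h. At 168 h Xbp1 had 66.4, 63.4, 60.6 and 57.9 CPM with FP and 65.6, 56.7 and 63.0 CPM with PBS, which overlapped. Pdia4 had 158, 138, 99.9 and 108 CPM with FP and 130.2, 97.1 and 113 CPM with PBS, likewise overlapping (log2 change 0.15, SE 0.16).

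**Figure D4:**
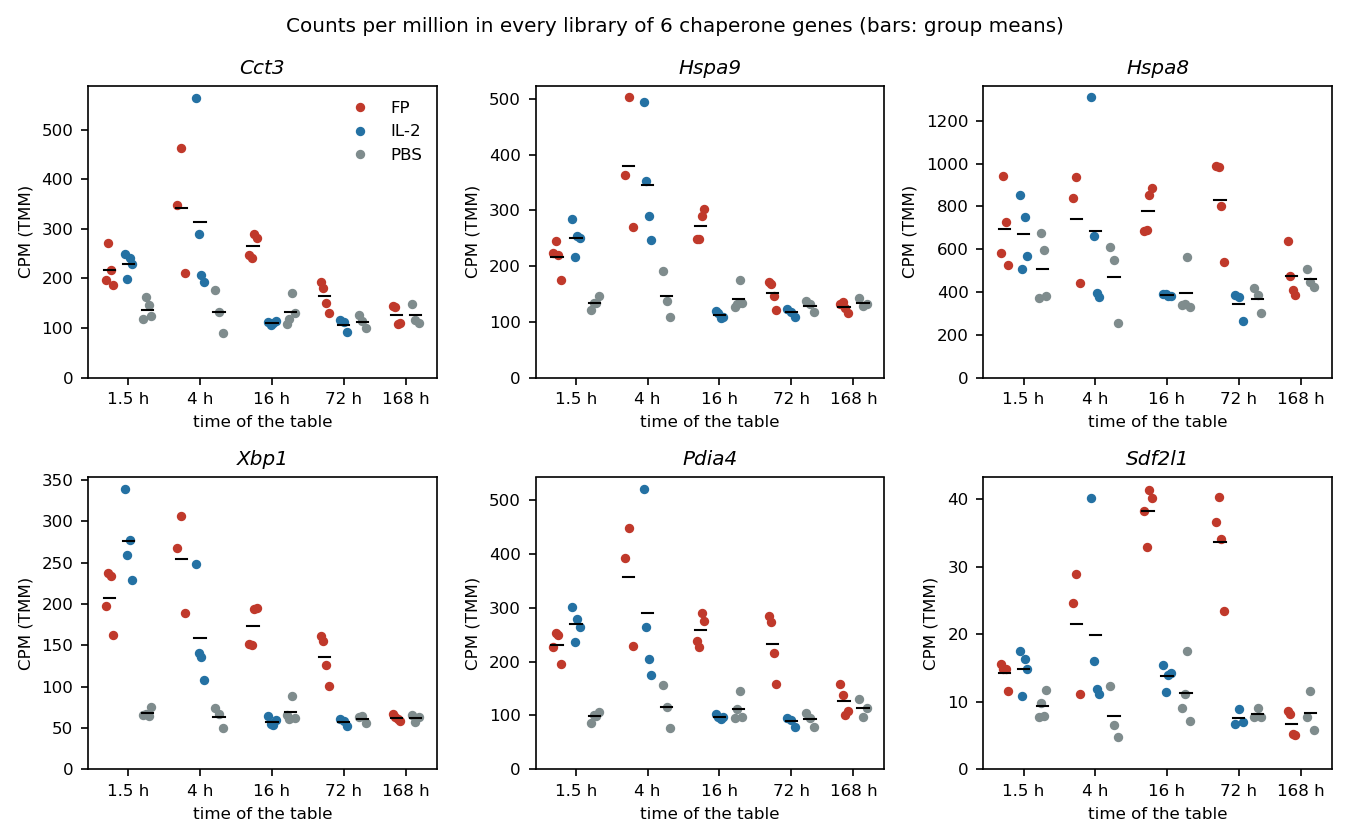
CPM in every library of 6 members (panels) at 5 times (horizontal axis), with FP in red, IL-2 in blue and PBS in grey, and bars at group means. Sdf2l1 reaches 41.4 CPM with FP at 16 h and 40.2 CPM at 72 h, and for Hspa9 the FP points come down to between 122 and 171 CPM at 72 h.

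Promoter sequence is shown for the ER members because 1 motif was found in theirs alone among the members. The ER stress response element, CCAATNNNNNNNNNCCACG on either strand, is the site through which Xbp1 and Atf6 are known to act, and it was searched in the same RefSeq windows (GRCm38.p6). It stood in 6 of 12 ER windows and in no window of another member, against 0.113% of all 32851 windows. The ER members Hyou1 and Manf had no window and were not searched. The Hspa5 site lies before the RefSeq start used. In the annotation that gave the exon lengths, Hspa5 starts further upstream, at base 34771970, and the site is inside the gene. Capitals mark the fixed letters of the element, which in the letters below reads from the other end in 3 of the 7 sites, and Hsp90b1 holds 2 sites.
Hspa5 (chr2:34772025-34772043, + strand): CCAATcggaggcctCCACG
Hsp90b1, far site (chr10:86705638-86705656, - strand): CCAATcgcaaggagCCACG
Hsp90b1, near site (chr10:86705533-86705551, - strand): CGTGGtgaggcacgATTGG
Pdia6 (chr12:17266491-17266509, + strand): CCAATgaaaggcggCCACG
Calr (chr8:84847075-84847093, - strand): CGTGGtcgaccctcATTGG
Canx (chr11:50325800-50325818, - strand): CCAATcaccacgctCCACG
Creld2 (chr15:88819520-88819538, + strand): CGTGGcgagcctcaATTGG
The whole stretch of Hsp90b1 shows how both of its sites lie, and those of Xbp1 and Pdia4, the called members with the largest rises at 1.5 h, held none of the motifs searched. In the longer stretch the whole element is in capitals. Such a match is a description of letters and no match says only that these letters are not in this window.
Hsp90b1 (chr10:86705510-86705694, - strand): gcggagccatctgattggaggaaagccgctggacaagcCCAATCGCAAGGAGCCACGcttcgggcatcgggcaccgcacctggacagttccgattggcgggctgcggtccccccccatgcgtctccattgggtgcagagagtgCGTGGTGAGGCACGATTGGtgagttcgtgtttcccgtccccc
Xbp1 (chr11:5520391-5520640, + strand): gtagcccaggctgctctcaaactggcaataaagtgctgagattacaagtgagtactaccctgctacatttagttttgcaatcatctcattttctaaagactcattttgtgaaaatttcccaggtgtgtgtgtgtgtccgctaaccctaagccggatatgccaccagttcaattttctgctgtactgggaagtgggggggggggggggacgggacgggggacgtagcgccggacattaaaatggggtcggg
Pdia4 (chr6:47813513-47813762, - strand): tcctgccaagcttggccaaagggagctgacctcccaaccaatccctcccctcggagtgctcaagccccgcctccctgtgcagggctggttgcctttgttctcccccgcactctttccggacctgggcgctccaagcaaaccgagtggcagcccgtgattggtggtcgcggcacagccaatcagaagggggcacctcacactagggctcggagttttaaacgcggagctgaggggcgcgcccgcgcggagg
Set beside these windows, the 6 ER members with the element changed by 0.08 to 0.51 on the log2 scale with IL-2 at 1.5 h, and by 0.79 to 1.06 with FP at 16 h. The 6 whose windows lacked it changed by 0.13 to 2.03 with IL-2 at 1.5 h and by -0.17 to 1.76 with FP at 16 h. The groups overlap at both times, and no test was made. The other motif searched, the E-box CACGTG that Myc and related factors bind, stood in 6.02% of all windows and in those of Calr, Dnajb9, Hspd1 and Hsph1.

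Whether the FP effect differed between times was tested as the difference of the log2 changes, each against its own PBS libraries, in 1 joint fit. Between 16 h and 1.5 h, 5 of 35 members differed (3.75% of all genes did, and 2.82% were higher at 16 h), and all 5 were ER members with the larger change at 16 h. They were Calr, by 1.00 (SE 0.21, edgeR adjusted p = 0.004713), Hyou1, by 0.73 (SE 0.13, edgeR adjusted p = 0.001075), Pdia3, by 0.77, Pdia6, another disulfide isomerase, by 0.76, and Canx, by 0.64. Pdia4 and Xbp1 had no such gain, with differences of -0.02 (95% interval -0.38 to 0.35) and -0.28 (-0.68 to 0.12). The median difference was 0.60 for ER, 0.43 for CCT, 0.47 for mitochondrial and 0.36 for cytosolic members. The count was between 1 and 10 when 1 library was left out. It was 4 or 5 without FP 2, PBS 1 or PBS 4 of the 1.5 h libraries, 10 without PBS 3 of the 16 h table, and 1 to 3 without any 1 of the other 12.

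Between 168 h and 72 h, 10 of 35 members differed, all with the smaller change at 168 h (4.65% of all genes were lower and 6.22% differed in either direction). They were 7 ER members, Tcp1, Cct2 and Hspa4. The largest differences were Sdf2l1, at -2.31 (SE 0.35, edgeR adjusted p = 0.0004322), Creld2 at -1.14 and Xbp1 at -1.12. Leaving out 1 library moved this count to between 2 (without PBS 2 or PBS 3 of 72 h) and 19 (without FP 4 of 72 h). It was 16 without FP 1, 4 without FP 3 or FP 4 and 3 without PBS 1 of 168 h, and 6 without FP 1 or FP 2 of 72 h.

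For IL-2, the change at 16 h was smaller than at 1.5 h in 14 of 35 members and larger in none (6.33% of all genes were lower and 10% differed in either direction). These were 7 of 8 CCT subunits, 2 of 4 mitochondrial members, Hspa4 of the cytosolic members, and 4 ER members. The difference was -2.31 (SE 0.18, edgeR adjusted p = 6.561e-08) for Xbp1, -1.68 (SE 0.16, edgeR adjusted p = 1.004e-06) for Pdia4 and -1.25 (SE 0.15, edgeR adjusted p = 8.37e-06) for Hspa9. The count was 9 without IL-2 2 of 16 h or IL-2 3 of 1.5 h.

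Between FP and IL-2 at 1.5 h no member was called (0% of all genes were, 3 members had an unadjusted p below 0.05, and DESeq2 called 0). Xbp1 was -0.41 on the log2 scale (95% interval -0.69 to -0.13, edgeR adjusted p = 0.7041), so a lower level with FP by up to 0.69 lay within the interval. Pdia4 was -0.22 (-0.44 to -0.01) and Cct3 was -0.08 (-0.35 to 0.20). At 16 h 32 of 35 members were higher with FP than with IL-2 (16.8% of all genes were higher and 31.8% differed in either direction), and at 72 h 28 of 36 (17.9% higher and 30.8% in either direction). The largest differences at 16 h were 1.59 for Xbp1, 1.51 for Hspd1 and 1.47 for Sdf2l1. Sdf2l1, at 2.16, had the largest at 72 h.

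The 4 h table was noisier, with a common biological variation of 38.4%, against 11.2% at 16 h. With IL-2 no member of 35 was called (0.652% of all genes were, 17 members had an unadjusted p below 0.05, and DESeq2 called 3), and with FP 1 was, Xbp1 (0.72% of all genes rose and 0.913% changed in either direction). Xbp1 had 268, 306 and 189 CPM with FP, 249, 141, 135 and 108 CPM with IL-2 and 73.5, 66.5 and 49.8 CPM with PBS. Each treated library was above the highest PBS library, and the log2 change was 2.01 (SE 0.32, edgeR adjusted p = 0.009476) with FP and 1.32 (SE 0.30, edgeR adjusted p = 0.05065) with IL-2. The call of Xbp1 with FP was lost without any 1 library of FP or PBS. By their sample ids, FP 2 and FP 4 came from a different lane than FP 1 and all IL-2 and PBS libraries compared. Lane can therefore not be fully told apart from FP at 4 h. Cct3 had 349, 463 and 211 CPM with FP, 564, 289, 208 and 193 CPM with IL-2 and 177, 132 and 90.3 CPM with PBS, and all treated libraries were above all PBS libraries, although IL-2 1 was nearly 3 times IL-2 4. Hspa9 had 364, 503 and 271 CPM with FP, 495, 353, 291 and 246 CPM with IL-2 and 191, 137 and 109.5 CPM with PBS, where the groups also stood apart. Libraries of the same number deviated together at 4 h. With the number as a block, 15 members rose with FP (3.93% of all genes rose and 5.64% changed in either direction) and 10 with IL-2 (2.36% rose and 2.89% changed in either direction). With FP these were 6 CCT subunits, 3 mitochondrial members, 1 cytosolic and 5 ER members. With IL-2 they were 2, 2, 2 and 4 in the same order. The column headers carry a further tag, whose meaning is not stated. PBS 1 and FP 2 share a tag, whereas the block sets FP 2 with PBS 2, which has another. The tags of PBS 2 and IL-2 2 match, as do those of the libraries numbered 4. Of 3 FP libraries, 2 deviated most like the PBS library of their own number. The FP count with the block therefore rests on a pairing that may not hold. FP against IL-2 gave no call among 35 members at 4 h (0% of all genes, 1 member at an unadjusted p below 0.05, and 0 by DESeq2).

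In vitro, IL-2 for 1.5 h raised Pdia4, and Xbp1 by far less than in the animal. Of 37 members 6 rose and 1 fell (7.4% of all genes rose, 6.54% fell and 13.9% changed). Pdia4 had 155, 145 and 149.7 CPM with IL-2 and 55.4, 54.4 and 52.6 CPM with PBS, and the groups lay far apart relative to their spread (log2 change 1.47, SE 0.04, edgeR adjusted p = 5.721e-20). Its change in the animal at 1.5 h was 1.46 (SE 0.10). Xbp1 had 164, 164 and 157 CPM with IL-2 and 144, 137 and 138 CPM with PBS in vitro. These groups did not overlap either, but the log2 change was 0.21 (SE 0.04, edgeR adjusted p = 7.266e-05). The PBS libraries of the animal table, which was scaled separately, had 63.7 to 74.9 CPM. Hspa9 had 223, 224 and 218 CPM with IL-2 and 223, 224 and 216 CPM with PBS in vitro, which coincide, where in the animal it rose by 0.91. The other calls were Tcp1 (0.18), Cct3 (0.15), Cct8 (0.15) and Manf (0.20), all higher, and Dnaja1, lower at -0.19 (SE 0.03, edgeR adjusted p = 9.718e-05). Dnaja1 averaged 252 ± 0.952 CPM with IL-2 and 288 ± 7.75 CPM with PBS (SD, n = 3 each). The summed immediate early level was 6798 to 7191 CPM with IL-2 and 7524 to 7668 CPM with PBS in vitro, and its part in this change was not tested. The count of 7 was 3 without IL-2 2 and 4 without IL-2 1 or PBS 2, and Pdia4, Xbp1 and Dnaja1 were called in each of those 3 fits.

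Tested as a difference, the effect of IL-2 in vitro was smaller than in the animal in 7 of 37 members and larger in none (3.11% of all genes were lower and 5.17% differed in either direction). Xbp1 differed by -1.84 (SE 0.15, edgeR adjusted p = 1.346e-06) and Hspa9 by -0.93 (SE 0.12, edgeR adjusted p = 8.495e-05). Cct6a followed at -0.73, and the others were Cct2, Cct7, Hspa4 and Hyou1. Pdia4 differed by -0.01 (95% interval -0.27 to 0.24). The tables also differ in handling and sequencing, which cannot be told apart from the setting. The count was 2 or 3 without any 1 of the 6 in vitro libraries, 4 without IL-2 1, IL-2 3, PBS 1 or PBS 3 of the animal libraries, and 11 without its IL-2 2.

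**Figure D5:**
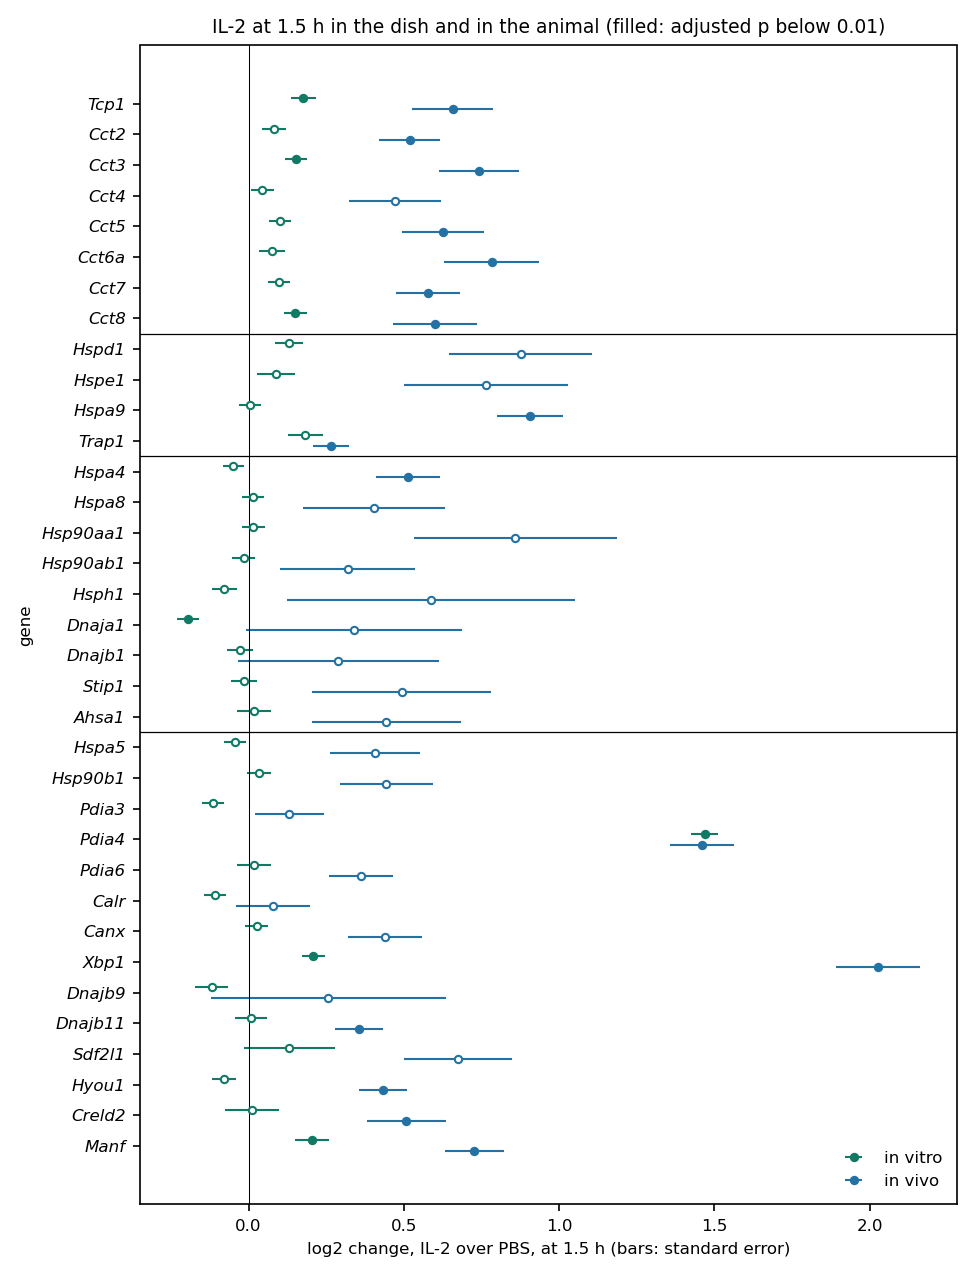
Log2 change with IL-2 over PBS at 1.5 h (horizontal axis, bars are standard errors) of 35 members (rows) in vitro (green) and in vivo (blue), with filled points for an adjusted p below 0.01. Hspa1a (0.01 in vitro and -2.49 in vivo) and Hspa1b (0.11 and -1.68), none of them called, are left out because their wide errors in vivo (SE 1.18 and 0.93) would stretch the axis. Pdia4 lies at 1.47 in vitro and 1.46 in vivo, and Xbp1 at 0.21 in vitro and 2.03 in vivo.

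High-dose IL-2 gave no call in 36 members (0% of all genes were called, 5 members had an unadjusted p below 0.05, and DESeq2 called 1, lower). Hsph1 had 50.8, 37.3 and 50.7 CPM with high-dose IL-2 and 80.6, 89.3 and 93.6 CPM with PBS, where every IL-2 library was below every PBS library (log2 change -0.92, SE 0.18, edgeR adjusted p = 0.06102). Xbp1 had 48.1, 72.6 and 48.6 CPM with IL-2 and 71.7, 54.7 and 76.2 CPM with PBS, which overlapped. Il2ra was 486 to 604 CPM with IL-2 and 498 to 630 CPM with PBS in that table, and the common biological variation was 40.7%. The sum of 7 measured B cell markers was 700 to 1238 CPM with IL-2 and 311 to 505 CPM with PBS. That of 10 measured myeloid markers was 40.3 to 57.9 CPM with IL-2 and 83.1 to 98.5 CPM with PBS. The part of such RNA in the chaperone values was not tested.

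A repeated dose of FP gave no call among 37 members against PBS (0.629% of all genes, 2 members at an unadjusted p below 0.05, and 1 by DESeq2). Those 2 members were Xbp1 and Pdia4. Xbp1 had 143, 183, 122 and 139 CPM after repeated FP, 75.6, 173 and 139 CPM after single FP and 64.5, 61.7 and 79.7 CPM after PBS. All repeated FP libraries were above all PBS libraries, as were single FP 2 and 3, while single FP 1 lay in the PBS range. The log2 change with repeated FP was 1.10 (SE 0.26, edgeR adjusted p = 0.04424). The spread in that fit was estimated from all groups of the table, single FP 1 among them, and no value without that library is given. Pdia4 had 181, 208, 141 and 181 CPM after repeated FP, 124, 165 and 155 CPM after single FP and 109, 107 and 144 CPM after PBS. The lowest repeated FP library lay just below the highest PBS library, and repeated FP changed it by 0.56 (SE 0.17, edgeR adjusted p = 0.0924). Single FP gave no call either, with the library labelled single FP 1 (0.0111% of all genes, 3 members at an unadjusted p below 0.05, and 1 by DESeq2) or without it (0.173% of all genes, 3 members at an unadjusted p below 0.05). Xbp1 changed with single FP by 0.91 (edgeR adjusted p = 0.2337) with that library and by 1.19 (SE 0.20, edgeR adjusted p = 0.036) without it. For Pdia4 the values were 0.30 and 0.41. The largest fitted changes with single FP were those of the low-count pair Hspa1a and Hspa1b. For Hspa1a the log2 change was 5.35 (edgeR adjusted p = 0.1059) with that library and 4.28 (SE 1.11, edgeR adjusted p = 0.1291) without it. For Hspa1b it was 5.11 (edgeR adjusted p = 0.06776) with it and 4.19 (SE 0.88, edgeR adjusted p = 0.06898) without it. With that library 22 of 37 members lay above PBS after single FP and the median was 0.04, and without it 11 of 37 did and the median was -0.11.

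Repeated against single FP gave no call among the members (0.585% of all genes, 5 members at an unadjusted p below 0.05, and 1, lower, by DESeq2). Without single FP 1 there was none either (0.106% of all genes and 4 members at an unadjusted p below 0.05). Hspa1b had 0.936, 2.18, 0.633 and 4.75 CPM after repeated FP, 50.05, 18.4 and 8.78 CPM after single FP and 0.248, 0.613 and 1.33 CPM after PBS, with every single FP library above every other library of the table. Its log2 change between repeated and single FP was -3.58 (SE 0.78, edgeR adjusted p = 0.04045), which did not pass. Without the library labelled single FP 1 it was -2.66 (SE 0.75, edgeR adjusted p = 0.1186). Hsph1 had 78.6, 88.2, 60.8 and 105 CPM after repeated FP, 399, 111 and 76.7 CPM after single FP and 51.0, 161 and 460.3 CPM after PBS. Single FP 1 and PBS 3 stood far above the others, and the groups overlapped. In repeated FP 2 and 4, Hsp90b1 (217, 75.4, 188 and 134 CPM over the 4 libraries), Hsp90aa1 (229, 78.2, 194 and 124 CPM) and Canx (281, 135, 232 and 210.1 CPM) were lower than in repeated FP 1 and 3, whereas Hspa8 (716, 823, 520.0 and 806 CPM) was not.

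Genes that work beside the members moved in part with them. The lists were prefoldin and phosducin-like proteins (9 genes), HSP90 and HSP70 co-chaperones (23), mitochondrial import and protease genes (17), sensors and factors of the unfolded protein response (9), and further ER folding and degradation genes (24). With FP at 16 h, 2 of 9 tested prefoldin, 10 of 22 co-chaperone (with 1 lower), 6 of 17 mitochondrial import, 1 of 9 unfolded protein response and 9 of 23 ER folding genes rose, where 14.4% of all genes did. The medians were 0.25, 0.38, 0.27, 0.04 and 0.19 in that order, against -0.05 over all genes. At 72 h the counts with FP were 5 of 9, 10 of 22, 7 of 17, 2 of 9 and 11 of 23, where 17.3% of all genes rose, with medians of 0.81, 0.44, 0.32, 0.05 and 0.28. IL-2 at 1.5 h raised 2, 4 (with 1 lower), 6, 2 and 2 of the same tested genes, where 8.39% of all genes rose. FP at 1.5 h raised 0, 1, 3, 1 and 1, where 4.39% of all genes rose, so several of these shares lie near that of all genes.

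Among the named partners, Trib3, a pseudokinase induced through Atf4, averaged 13.5 ± 3.65 CPM with FP, 18.8 ± 3.358 CPM with IL-2 and 2.50 ± 0.657 CPM with PBS at 1.5 h (SD, n = 4), log2 changes of 2.43 (SE 0.24, edgeR adjusted p = 1.504e-05) and 2.91 (SE 0.24, edgeR adjusted p = 1.536e-06). Atf4, the factor of the Perk branch of the response, rose with IL-2 by 0.59 (SE 0.10, edgeR adjusted p = 0.0004479). Atf6, a sensor of ER stress, was called with FP at 72 h (0.57, SE 0.08, edgeR adjusted p = 0.0002095). Tomm40, the pore of the outer mitochondrial membrane, rose with FP by 0.47 at 1.5 h, 0.82 at 16 h and 0.46 at 72 h. P4hb, the most abundant disulfide isomerase of many cells, averaged 226 ± 16.7 CPM with FP and 135 ± 26.9 CPM with PBS at 16 h (SD, n = 4), and rose by 0.75 (SE 0.10, edgeR adjusted p = 2.525e-05). In vitro the response genes split. Trib3 rose by 1.29 with IL-2, and Eif2ak3, which encodes the sensor Perk (-0.40), Ppp1r15a, which restarts translation after stress (-0.23), and Ern1, which encodes the sensor Ire1 (-0.23), fell.

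Markers of other cells moved with some of these comparisons. The summed level of 13 myeloid markers was 22.3 to 85.8 CPM with FP and 294 to 732 CPM with PBS at 72 h (10 of 11 tested were lower), and 29.9 to 39.7 CPM with FP and 202 to 296 CPM with PBS at 168 h (9 of 10 lower). The sum of 10 B cell markers was 267 to 344 CPM with FP, 241 to 288 CPM with IL-2 and 383 to 544 CPM with PBS at 1.5 h (1 of 10 lower with FP), 321 to 346 CPM with FP and 359 to 562 CPM with PBS at 16 h (4 of 10 lower), and 475 to 587 CPM with FP and 377 to 420 CPM with PBS at 72 h (2 higher and 1 lower). Of all genes tested, 6.67% changed with FP in either direction at 1.5 h, 28.8% at 16 h, 30.4% at 72 h and 1.21% at 168 h. These shares hold both directions, and 4.39% of all genes rose at 1.5 h and 14.4% at 16 h. The shares of genes that fell, which are the ones to set beside the lower B cell markers, are therefore smaller than those given. Plasma cells are rich in ER chaperones. Of 8 plasma cell markers 5 were tested at 72 h and 3 rose with FP, Prdm1, Txndc5 and Irf4, which Tregs and other cells also use. At that time 17.3% of all genes rose with FP. The sum of the 5 markers was 222 to 299 CPM with FP and 136 to 168 CPM with PBS, without overlap. Jchain, which defines plasma cells, was at 0.425 ± 0.0834 CPM with FP (SD, n = 4) and 0.404 ± 0.0260 CPM with PBS (SD, n = 3) at 72 h, and Derl3 at 2.46 ± 0.549 CPM and 3.01 ± 0.843 CPM. The part of B cell, plasma cell and myeloid RNA in the chaperone changes was not tested.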

How the data were processed

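Whole-number read counts per gene, in 8 tables, were deposited by the authors and used as they stand. Per the submitters' processing notes, the tools included STAR 2.5.0, featureCounts 1.5.0 and DESeq2, and the build GRCm38, and whether counting used the strand is not given in the sources used here. The 91 samples were 75 libraries, since 16 were further runs of a library and were summed with it. Of the 75 libraries 73 entered comparisons, and 2 with contradicting labels did not.

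In each table, genes passing filterByExpr were scaled by TMM and tested by edgeR 4.0.16 (quasi-likelihood, 1 model of all groups, R 4.3.3), with Benjamini-Hochberg adjustment over all genes and a threshold of 0.01. Differences between effects came from joint fits of the tables and so depart slightly from the subtraction of separate changes. Levels are TMM-scaled CPM, and log2 levels used a prior count of 2. The analysis was tested on simulated data. Total counts were 12212262 to 46108114 per library, which limits precision for Hspa1a and Hspa1b most.

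The members, the related lists and the markers were chosen with earlier results of these data known, so counts over them are descriptions. All members could be named, a fixed set of 27 was given by library, and related genes were named by smallest p. Same-numbered libraries were taken as pairs where every same-number correlation of deviations from group means was over 0.1. This held for IL-2 against PBS at 4 h (0.375 to 0.798) and at 72 h (0.291 to 0.423), and for FP against PBS at 4 h (0.180 to 0.821). Alternatives were RLE scaling, no low-count filter, DESeq2 1.42.0, the block, lane, the 2 groups alone, and each library left out.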

Additional observations from a re-analysis of the deposited data

Results flagged for a closer look

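In 300 tests of the gap between 1 library and the others of its group, 14 had a library far from the rest, and chance gives about 1 in 20. In the 16 h PBS group library 3 stood apart for Hspa9 (176 CPM, others 126 to 133), for Hspa8 (565 CPM, others 328 to 345), for the cytosolic level (0.437, others -0.165 to -0.108) and for the ER level (0.369, others -0.151 to -0.0878). In the 1.5 h FP group library 2 stood apart for Hsp90ab1 (2458 CPM, others 1422 to 1505) and Ahsa1 (160.3 CPM, others 83.5 to 90.0). That library carries a later date in its labels than the rest of its table, and whether the date plays a part was not tested. At 1.5 h IL-2 1 was high for Hspa1b (3.09 CPM, others 0.524 to 0.903) and PBS 4 for Hspa1a (7.66 CPM, others 0 to 0.773). At 4 h IL-2 1 was high for Hspe1 (185 CPM, others 53.4 to 63.8) and Sdf2l1 (40.2 CPM, others 11.1 to 16.0). At 16 h IL-2 1 was low for Hspe1 (30.2 CPM, others 33.4 to 33.9) and high for Creld2 (14.1 CPM, others 10.9 to 11.2). At 168 h FP 3 was low for Hspe1 (30.0 CPM, others 51.9 to 55.1). In the restimulation table repeated FP 3 was low for the CCT ring level (-0.143, others 0.163 to 0.193).

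Effects also differed between times or settings, each by the test of the difference in edgeR. For FP at 16 h against 1.5 h 5 members differed, led by Calr (1.00), Pdia3 (0.77) and Pdia6 (0.76). For FP at 72 h against 16 h 1 did, Hspa9 (-0.73). For FP at 168 h against 72 h 10 did, led by Sdf2l1 (-2.31), Creld2 (-1.14) and Xbp1 (-1.12). For IL-2 at 16 h against 1.5 h 14 did, led by Xbp1 (-2.31), Pdia4 (-1.68) and Hspa9 (-1.25). For IL-2 in vitro against in vivo 7 did, led by Xbp1 (-1.84), Hspa9 (-0.93) and Cct6a (-0.73).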

How the results depend on the processing

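No called member changed direction under any alternative run: of 2641 alternative fits of 187 called values, 2329 stayed past the threshold and 312 did not. Counts of called members moved by more than 1.5 times as follows, and the cause was not tested. With DESeq2 there were 14 with FP at 1.5 h, 3 with IL-2 and 5 with FP at 4 h, 1 with single FP, 1 with repeated FP, 1 between these, 1 with high-dose IL-2, and 17 for FP at 168 h against 72 h. The call with FP at 4 h gave 0 without the low-count filter, 0 with only the groups compared and 0 with lane as a covariate, and 2 with the contradicting libraries grouped by title. Lane overlaps with FP there, since only FP 2 and FP 4 of the libraries compared came from the other lane. RLE scaling gave 0 for FP at 72 h against 16 h and 4 for in vitro against in vivo.

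With the replicate number as a block, 15 members were called with FP and 10 with IL-2 at 4 h. The header tags of that table do not all follow the number, as given above. Where the numbers did not pair the libraries, the block gave 4 in vitro, 2 for FP at 72 h against 16 h, 28 for FP at 168 h against 72 h and 3 for in vitro against in vivo. It moved no other count by over 1.5 times.

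Leaving out 1 library gave 11 to 19 with IL-2 and 4 to 11 with FP at 1.5 h, 0 with FP at 4 h in every fit, 32 to 34 with FP at 16 h, 16 to 31 with FP at 72 h and 3 to 7 in vitro. FP against IL-2 gave 32 to 33 at 16 h and 21 to 31 at 72 h. The differences between effects gave 1 to 10 (FP, 16 h against 1.5 h), 0 to 2 (FP, 72 h against 16 h), 2 to 19 (FP, 168 h against 72 h), 9 to 16 (IL-2, 16 h against 1.5 h) and 2 to 11 (in vitro against in vivo). Counts of 0 stayed at 0.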

Other observations

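At 4 h, a library had a title naming PBS and another a title naming FP, while the injected molecule in their labels said otherwise. The column headers of the count table name the same molecule as the titles. The library titled PBS had 575 CPM of Il2ra, 60.6 CPM of Xbp1, 85.0 CPM of Pdia4, 114 CPM of Hspa9 and 98.9 CPM of Cct3. The library titled FP had 2154 CPM of Il2ra, 162 CPM of Xbp1, 218 CPM of Pdia4, 277 CPM of Hspa9 and 207 CPM of Cct3.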
